A study of Mus musculus with 6 samples.

Results

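The prolactin receptor and the JAK2-STAT5 route below it were followed in whole ovaries of mice with a truncated Bnc1. The genes were chosen by symbol: the receptor Prlr, the kinase gene Jak2, the transcription factor genes Stat5a and Stat5b, and the feedback genes Cish, Socs2 and Socs3, which made 7 of the 44788 genes listed in the count table. All 7 passed the filter on low counts that left 19423 genes for testing. RNA-seq was performed on whole ovaries of wild type mice (WT), with 3 samples numbered 1, 4 and 7, and of homozygous Bnc1tr/tr mice, with 3 samples numbered 1 to 3, all of strain C57BL/6 J and 8 weeks of age, with no treatment given in the labels for either genotype. Bnc1tr/tr mice carry a targeted small deletion in Bnc1, a zinc finger transcription factor gene, that shifts the reading frame and ends the protein early in every cell that would make it, not only in the ovary. The labels do not give the stage of the oestrous cycle, and where the 3 samples of a genotype do not come from separate mice, the p values measure only the spread between samples.

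Prolactin is secreted by the anterior pituitary and acts on the ovary through its receptor, a single-pass cytokine receptor with no enzyme activity of its own. The receptor is bound by the kinase JAK2, which phosphorylates the receptor and then STAT5A and STAT5B; these pair up, enter the nucleus and bind palindromic elements in target genes. Among the targets are Cish and genes of the Socs family, whose proteins dampen signalling by the same receptors. In rodents prolactin is known for maintaining the corpus luteum, the progesterone-secreting gland that forms from the follicle after ovulation.

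The promoters of the members were first searched for the STAT5 element, since the motif is the way in which this pathway reaches its targets. The RefSeq promoter windows of GRCm38.p6 held 10 windows for 6 of the members, each running from 250 bases before to 50 bases after an annotated start site. The letters searched were TTCNNNGAA, a palindrome that reads the same on both strands, with overlapping matches counted. Of all 32851 windows searched in the same way, 8.3% held at least 1 match and 0.457% held 2 or more. Among the members, 3 windows held a match: that of Cish, 1 of the 3 windows of Prlr, and that of Socs3. No match was found in the windows of Jak2, Stat5a and Stat5b, which says only that these letters are not in these windows. The 3 windows with a match are shown 5′ to 3′ on the strand of the gene, with the matched letters in capitals. Cish lies at chr9:107296409-107296708 (plus strand), Prlr at chr15:10223656-10223955 (plus strand) and Socs3 at chr11:117969317-117969616 (minus strand).
Cish: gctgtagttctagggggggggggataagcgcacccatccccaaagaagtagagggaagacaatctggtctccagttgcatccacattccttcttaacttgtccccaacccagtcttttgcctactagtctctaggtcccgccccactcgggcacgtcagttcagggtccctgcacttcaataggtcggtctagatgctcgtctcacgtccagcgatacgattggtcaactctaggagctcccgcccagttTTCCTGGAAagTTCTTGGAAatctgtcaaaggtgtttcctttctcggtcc
Prlr: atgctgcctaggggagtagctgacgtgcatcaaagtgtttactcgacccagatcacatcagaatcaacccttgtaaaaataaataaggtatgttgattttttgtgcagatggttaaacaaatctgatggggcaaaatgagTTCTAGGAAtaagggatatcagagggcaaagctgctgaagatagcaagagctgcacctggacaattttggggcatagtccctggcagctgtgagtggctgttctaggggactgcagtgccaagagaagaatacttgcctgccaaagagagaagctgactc
Socs3: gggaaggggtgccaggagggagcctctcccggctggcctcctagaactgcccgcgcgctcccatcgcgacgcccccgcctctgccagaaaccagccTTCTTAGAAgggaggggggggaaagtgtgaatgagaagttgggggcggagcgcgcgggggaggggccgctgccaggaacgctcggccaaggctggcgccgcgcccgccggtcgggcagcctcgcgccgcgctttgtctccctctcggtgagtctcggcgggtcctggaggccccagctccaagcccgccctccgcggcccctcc
The Cish window was the only one of the 10 with 2 matches, which began 0 and 11 bases after the annotated start site. The match of Prlr began at -110 and that of Socs3 at -154 relative to the start site.

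Prlr, the receptor, was lower in Bnc1tr/tr ovaries. The gene lies at chr15:10177238-10349180 on the plus strand (GRCm38, GENCODE M21). Its level, in CPM (counts relative to library size, with the library size scaled by a TMM factor), was 329.3, 347.4 and 361.1 in WT replicates 1, 4 and 7, and 79.0, 162.6 and 137.8 in Bnc1tr/tr replicates 1, 2 and 3. The genotypes did not overlap: the WT ovaries lay close together, and every Bnc1tr/tr ovary was under them, with Bnc1tr/tr replicate 1 the lowest. Prlr averaged 345.9 ± 16 CPM in WT and 126.4 ± 42.9 CPM in Bnc1tr/tr (SD, n = 3 each), or 36.6% of the WT mean. The log2 fold change was -1.45 (SE 0.24, 95% confidence interval -2.0 to -0.91, adjusted p = 0.0134 in edgeR's quasi-likelihood test over all 19423 genes). The call of Prlr was lost without WT replicate 4 (adjusted p = 0.0757) and without WT replicate 7 (0.0566). Between 8857 and 11499 reads in WT and between 2220 and 4223 reads in Bnc1tr/tr stood behind these values. The annotation lists 7 protein-coding transcripts of Prlr with 608, 310, 303, 292, 185, 155 and 119 codons, among them the long form that signals through STAT5 and the short forms with a truncated cytoplasmic tail. The counts sum over all of them, so the long and short receptors could not be separated. The annotated span of Prlr overlaps that of Gm21973 on the same strand, and whether their exons share bases was not examined. The deposited counts hold no gene under the symbol Gm21973.

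Jak2, the kinase bound to the receptor, did not pass the test. Jak2 (chr19:29251828-29313080, plus strand) was measured at 40.6, 39.9 and 38.4 CPM in WT and at 42.4, 39.8 and 42.2 CPM in Bnc1tr/tr ovaries. The genotypes overlapped within a narrow range. The log2 fold change was 0.07 (SE 0.08, 95% confidence interval -0.11 to 0.24, adjusted p = 0.648). Reads of Prlr per read of Jak2 came to 8.12, 8.71 and 9.40 in WT and to 1.86, 4.09 and 3.26 in Bnc1tr/tr ovaries.

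Both Stat5 genes, which encode the transcription factors that JAK2 activates, were lower in Bnc1tr/tr ovaries. They are neighbours on chromosome 11, Stat5b at chr11:100780731-100850724 (minus strand) and Stat5a at chr11:100859351-100885169 (plus strand). Stat5b was measured at 177.5, 205.0 and 266.3 CPM in WT and at 116.3, 121.7 and 118.0 CPM in Bnc1tr/tr ovaries. Its 3 Bnc1tr/tr values were nearly equal, and all lay under the lowest WT ovary, replicate 1. Stat5b fell from 216.3 ± 45.4 to 118.7 ± 2.78 CPM (SD, n = 3 each), 54.9% of the WT mean, with a log2 fold change of -0.87 (SE 0.14, 95% confidence interval -1.20 to -0.53, adjusted p = 0.0147). The call of Stat5b was lost without WT replicate 4 (adjusted p = 0.0684) and without Bnc1tr/tr replicate 3 (0.0526). Stat5a was measured at 79.4, 89.3 and 110.4 CPM in WT and at 56.9, 59.1 and 65.9 CPM in Bnc1tr/tr ovaries. As with Stat5b, the WT ovaries were spread more widely, replicate 1 was the lowest of them, and the genotypes did not overlap. Stat5a fell from 93.0 ± 15.8 to 60.6 ± 4.68 CPM (SD, n = 3 each), 65.2% of the WT mean, with a log2 fold change of -0.62 (SE 0.13, 95% confidence interval -0.92 to -0.31, adjusted p = 0.0338). The call of Stat5a was lost with library size in place of TMM (adjusted p = 0.0553) and without any 1 ovary other than WT replicate 1 (0.0654 to 0.120).

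The Stat5 genes are near copies of each other, so the share of their reads was examined. Stat5a held 30.9%, 30.3% and 29.3% of the reads of both genes in WT, and 32.9%, 32.7% and 35.8% in Bnc1tr/tr ovaries. The share was higher in every Bnc1tr/tr ovary than in any WT ovary (30.2% ± 0.805 against 33.8% ± 1.77, SD, n = 3 each), and no test of this share was run. Of the stretches of 50 bases in the Stat5a transcripts, 14.7% also occur in Stat5b, and for stretches of 100 bases the share was 6.31%, so that some reads could have been counted on either gene. Stat5a also overlaps Stat3 on the opposite strand, and whether the counting used strand is not given in the sources used here. Stat3 was measured at 140.4, 134.9 and 170.6 CPM in WT and at 126.0, 134.3 and 108.3 CPM in Bnc1tr/tr ovaries (log2 fold change -0.27, adjusted p = 0.218).

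Cish, a STAT5 target whose product binds activated receptors and competes with STAT5, was lower in Bnc1tr/tr ovaries. This is the gene with 2 STAT5 motif matches at its start site, shown above. Cish (chr9:107296026-107302784, plus strand) was measured at 69.8, 161.1 and 154.9 CPM in WT and at 59.3, 43.9 and 48.6 CPM in Bnc1tr/tr ovaries. WT replicate 1 lay closer to the Bnc1tr/tr ovaries than to the other WT ovaries, although the genotypes did not overlap. Cish averaged 128.6 ± 51.0 CPM in WT and 50.6 ± 7.89 CPM in Bnc1tr/tr (SD, n = 3 each), or 39.4% of the WT mean. The log2 fold change was -1.35 (SE 0.30, 95% confidence interval -2.03 to -0.66, adjusted p = 0.0383). Without WT replicate 1 it was -1.65 with an adjusted p of 0.00389, whereas without any 1 of the other 5 ovaries the call was lost (adjusted p = 0.0601 to 0.151), as it was with limma-voom (0.0542) and a robust edgeR fit (0.0683). Cish overlaps Gm17040 and Gm17041 on the opposite strand. Gm17040 had 9 to 28 reads per ovary, against 1141 to 5333 for Cish.

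Socs2, which limits growth hormone signalling and is induced through STAT5 in other tissues, did not pass the test. Socs2 (chr10:95385362-95417180, minus strand) was measured at 162.8, 186.6 and 147.9 CPM in WT and at 204.0, 147.7 and 226.6 CPM in Bnc1tr/tr ovaries. The ranges overlapped, and the highest values were those of Bnc1tr/tr replicates 1 and 3. The log2 fold change was 0.22 (SE 0.16, 95% confidence interval -0.16 to 0.60, adjusted p = 0.464). There were 2.33, 1.16 and 0.955 reads of Socs2 per read of Cish in WT, and 3.44, 3.36 and 4.66 in Bnc1tr/tr ovaries. Per read of Stat5b there were 0.917, 0.910 and 0.555 in WT, and 1.75, 1.21 and 1.92 in Bnc1tr/tr ovaries. Neither ratio overlapped between the genotypes, which follows from the fall of Cish and Stat5b and says nothing further of Socs2. Cish reads per Stat5b read overlapped, with 0.393, 0.786 and 0.582 in WT and 0.510, 0.361 and 0.412 in Bnc1tr/tr ovaries.

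Socs3, an inhibitor that binds JAK2 and is best known downstream of STAT3, did not pass the test either. Socs3 (chr11:117966079-117970047, minus strand) was measured at 21.8, 29.4 and 42.2 CPM in WT and at 28.8, 20.7 and 21 CPM in Bnc1tr/tr ovaries. The genotypes overlapped, with WT replicate 1 among the Bnc1tr/tr values. The log2 fold change was -0.41 (SE 0.24, 95% confidence interval -0.97 to 0.15, adjusted p = 0.349).

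**Figure D1:**
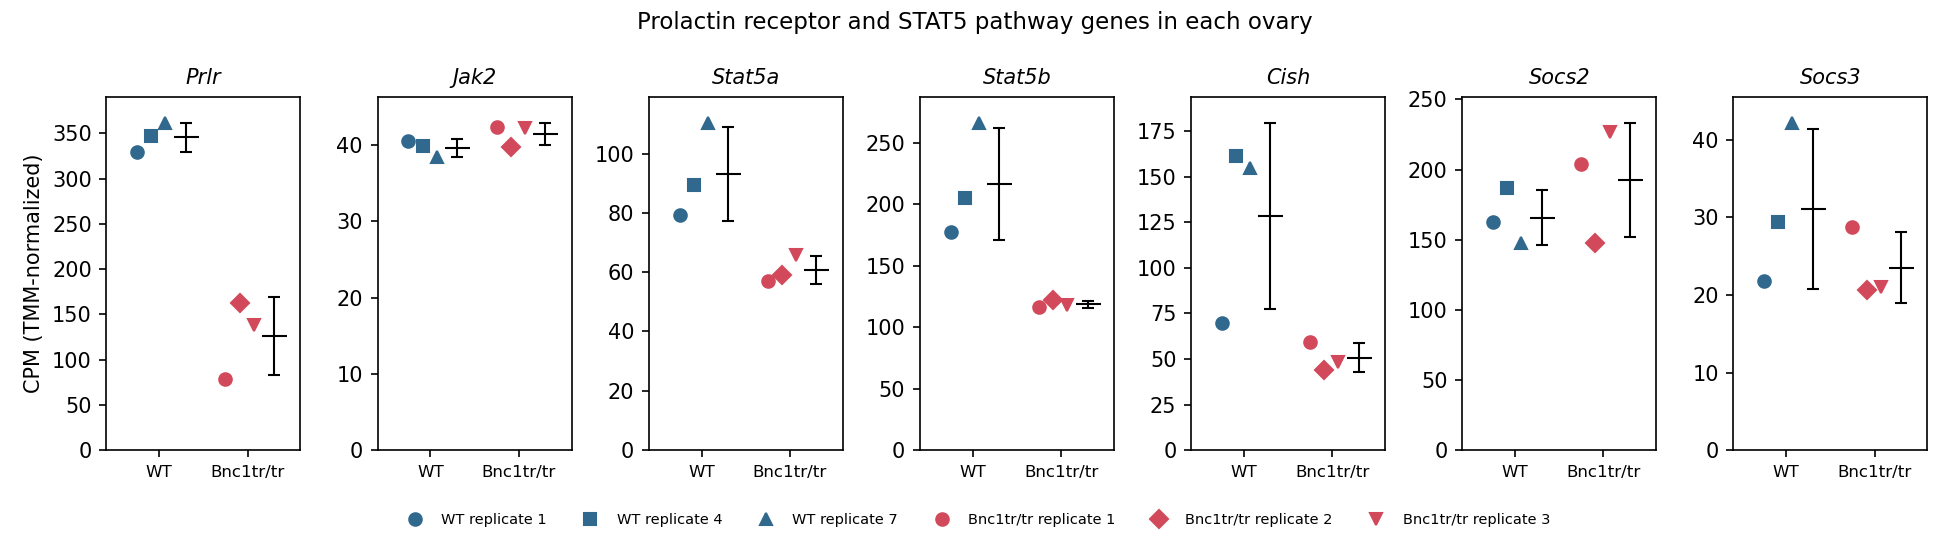
Level of the 7 genes in each ovary, in CPM scaled with TMM factors, on axes that start at 0; each symbol is 1 ovary, blue for WT and red for Bnc1tr/tr, and the bar beside them gives the mean ± SD of 3 ovaries. Prlr, Stat5a, Stat5b and Cish did not overlap between the genotypes, while Jak2, Socs2 and Socs3 did; WT replicate 1 of Cish (69.8 CPM) lay near the Bnc1tr/tr ovaries (43.9 to 59.3 CPM).

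In total 4 of the 7 members passed the threshold of an adjusted p of 0.05, all 4 lower in Bnc1tr/tr, and none was higher. Over all genes tested, 7.06% passed, 4.19% lower and 2.88% higher in Bnc1tr/tr ovaries. The same 4 members were those whose ovaries did not overlap between the genotypes, against 30.8% of all genes tested. The median log2 fold change of the 7 members was -0.62 and that of all genes was 0.02. With library size in place of TMM, the median of all genes moved to 0.118 from 0.018, and 35.6% of the passing genes were lower, against 59.3% with TMM; 3 members then passed, since Stat5a had an adjusted p of 0.0553.

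The number of members that passed depended on single ovaries. Without WT replicate 4, 0 of the 7 passed in edgeR, although 4 had an unadjusted p under 0.05 and DESeq2 called 4; the number of genes that passed among all genes fell to 320 from 1372. Without WT replicate 7 only Stat5b passed, and without Bnc1tr/tr replicate 3 only Prlr. Without Bnc1tr/tr replicate 1 or 2, Prlr and Stat5b passed. The log2 fold change of each of the 4 members stayed negative under all 13 alternatives, from -1.68 to -1.20 for Prlr, from -1.0 to -0.70 for Stat5b, from -0.73 to -0.49 for Stat5a and from -1.65 to -1.16 for Cish. Prlr and Stat5b passed in 11 of the 13, Stat5a in 7 and Cish in 6.

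Levels of the 7 members were ranked only per length, as RPKM (CPM divided by exon length in kilobases), and their order depended on the length used. Over all annotated exon bases, Stat5b was the highest in WT (39.0 ± 8.20 RPKM, SD, n = 3), followed by Prlr (22.6 ± 1.04), Cish (20.0 ± 7.95), Socs2 (17.4 ± 2.04), Stat5a (13 ± 2.22), Socs3 (10.8 ± 3.56) and Jak2 (7.88 ± 0.217). Of neighbours in this order, the WT ovaries of Stat5b and Prlr did not overlap. Those of Prlr and Cish, of Cish and Socs2 and of Stat5a and Socs3 overlapped. The lowest WT value of Socs2 and the highest of Stat5a, both in replicate 7, were equal only as rounded (15.5 RPKM). The WT ovaries of Socs3 and Jak2 overlapped at the level of WT replicate 1. In Bnc1tr/tr ovaries Stat5b (21.4 ± 0.502) and Socs2 (20.2 ± 4.26) led and overlapped. The other 5 lay between 7.89 and 8.50 RPKM on average, Prlr at 8.24 ± 2.80 beside Jak2 at 8.24 ± 0.291. With the longest protein-coding transcript as the length, Socs2 led in WT at 74.6 RPKM, ahead of Cish at 45.1, Stat5b at 41.5 and Prlr at 34.9, since its annotated exons cover 9531 bases and its longest coding transcript 2222. Jak2 was the lowest in WT with either length.

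The ligand was absent from the ovary libraries. Prl, the prolactin gene, had 0 reads in all 6 ovaries, which allows up to 3 reads per ovary by counting error alone, and so did Gh, the growth hormone gene. Ghr, the growth hormone receptor, which also signals through JAK2 and STAT5, was measured at 32.7, 34.5 and 47.9 CPM in WT and at 49.6, 36.0 and 29.6 CPM in Bnc1tr/tr ovaries, with a log2 fold change of 0.00 (95% confidence interval -0.49 to 0.50, adjusted p = 0.997). Lepr, the leptin receptor, was higher in every Bnc1tr/tr ovary, with 17.0, 29.5 and 25.4 CPM against 15.0, 13.3 and 13.6 in WT, but missed the threshold (log2 fold change 0.78, SE 0.19, adjusted p = 0.0536). It passed in 5 of the 13 alternatives, with adjusted p values from 0.00390 to 0.201 over all 13. Ghr and Lepr belong to a list of 8 receptor genes besides Prlr that use JAK2 or STAT5, among them a receptor chain that reaches STAT5 through other JAKs. Of the 8, 7 could be tested and 0 passed in edgeR, where 7.06% of all genes tested passed. An unadjusted p under 0.05 was found for 2, Lepr included, and DESeq2 called 2. The median log2 fold change of the 7 was -0.12. The gene not tested had at most 1 read in every ovary.

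Of 7 other genes of the JAK and STAT families, 0 passed in edgeR or DESeq2, and 1 had an unadjusted p under 0.05. In edgeR 7.06% of all genes tested passed. Jak1, which serves interferon and other cytokine receptors, stood at 518.0 ± 20.0 and 562.2 ± 86.0 CPM and did not pass (log2 fold change 0.12, adjusted p = 0.593). The median over the 7 genes was -0.09. Of the 5 other Socs genes, 0 passed in edgeR or DESeq2 and 1 had an unadjusted p under 0.05; their median was 0.18. Socs7 had the highest CPM of them, with 82.3, 87.2 and 83.9 CPM in WT and 132.7, 90.6 and 100.4 CPM in Bnc1tr/tr ovaries (log2 fold change 0.35, adjusted p = 0.172).

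Genes of adaptors, phosphatases, kinases and other factors that carry or end prolactin receptor signalling did not pass. Of these 15 genes, 0 passed in edgeR, where 7.06% of all genes tested passed. At that share, lists this short would hold few passing genes. Of the 15, 3 had an unadjusted p under 0.05 and DESeq2 called 1. The log2 fold changes of the 15 ran from -0.24 to 0.39 around a median of -0.09. Ptpn11, the phosphatase SHP2, had a log2 fold change of -0.09 (95% confidence interval -0.29 to 0.11, adjusted p = 0.565). Of 8 genes known as STAT5 targets in other tissues, 7 could be tested and 0 passed in edgeR, with 1 at an unadjusted p under 0.05 and 1 called by DESeq2, and the log2 fold changes ran from -0.40 to 0.42 around a median of -0.08. Igf1, the growth factor gene that STAT5B drives in liver, was higher in each Bnc1tr/tr ovary (56.4, 50.4 and 66.2 CPM against 44.7, 40.7 and 44.2 in WT) and missed the threshold with a log2 fold change of 0.42 (SE 0.11, adjusted p = 0.0673), passing in 3 of the 13 alternatives. Myc and Bcl2l1, a proliferation and a survival gene, had log2 fold changes of -0.05 and -0.08 (adjusted p = 0.919 and 0.745).

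**Figure D2:**
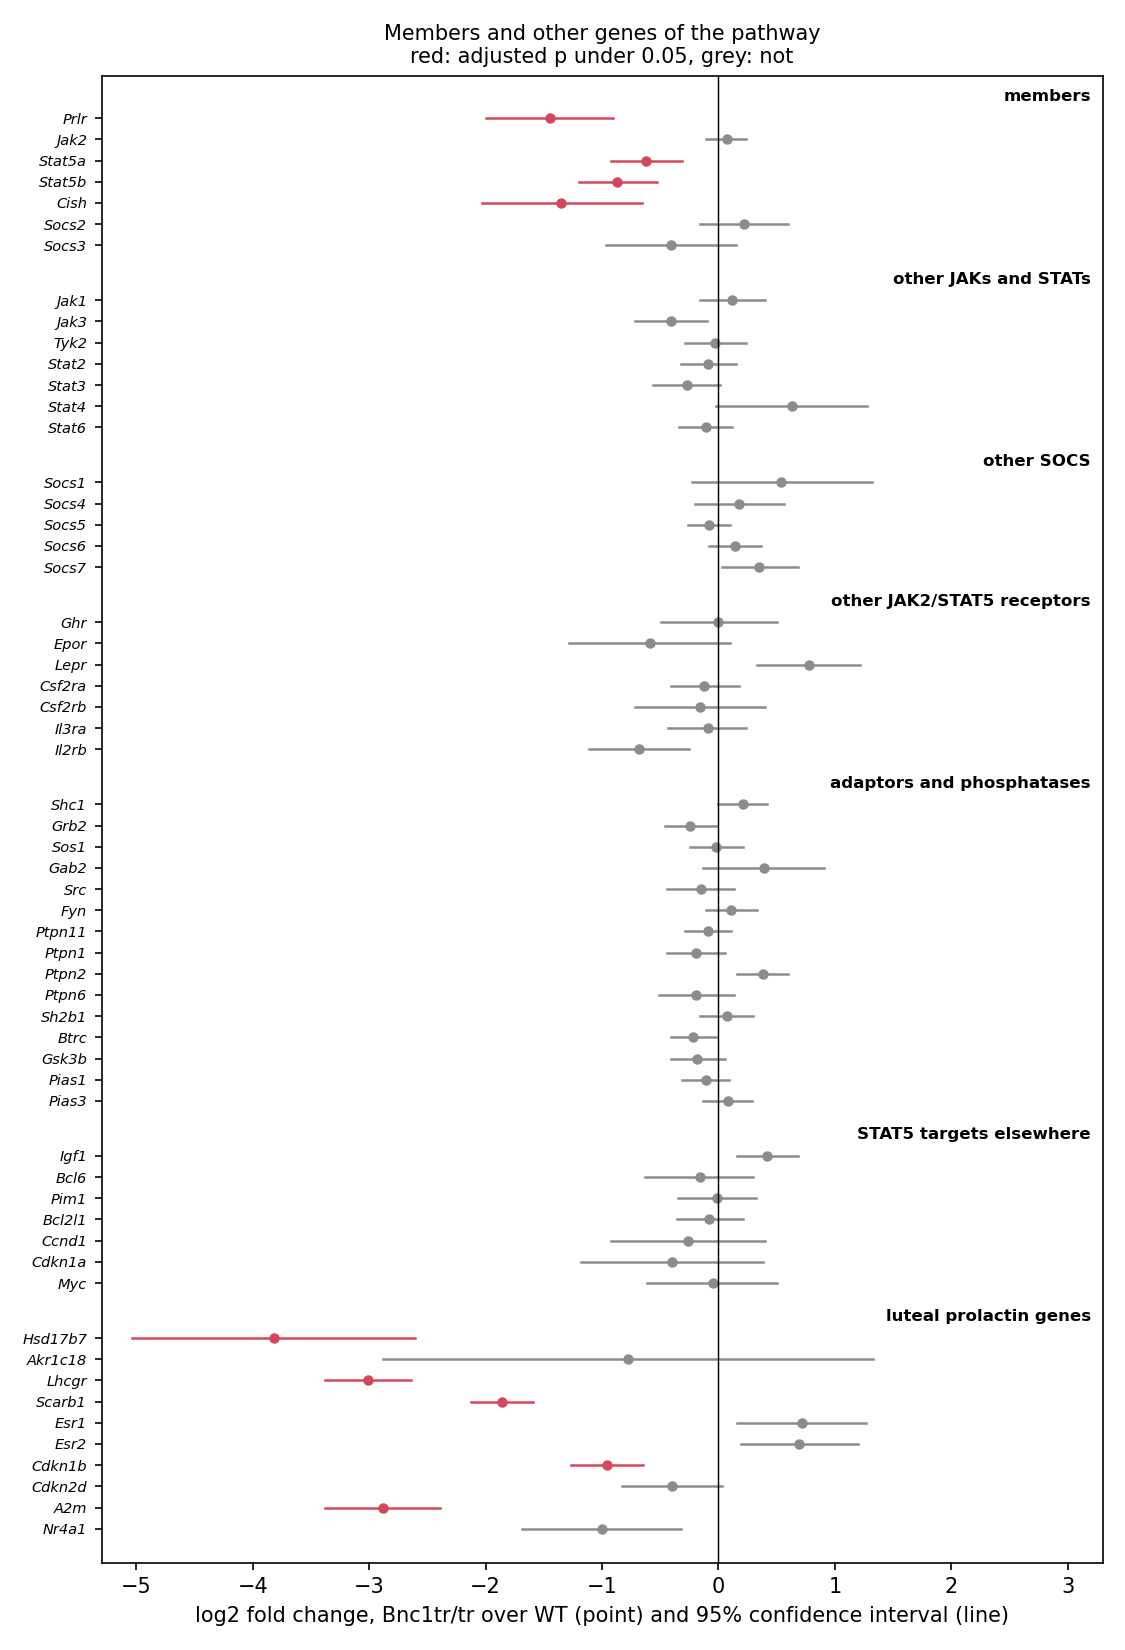
Log2 fold change of Bnc1tr/tr over WT ovaries (x axis, points) with its 95% confidence interval (lines) for the 7 members and the tested genes of 6 pathway lists (y axis), red where the adjusted p over all genes was under 0.05. Outside the members, the red genes are 5 luteal prolactin genes (-3.82 to -0.96). Grey points ran from -0.68 to 0.78 for the other receptors and from -0.41 to 0.63 for the other JAKs and STATs. They ran from -0.08 to 0.54 for the other Socs genes. For the list labelled adaptors and phosphatases, which also holds kinases, they ran from -0.24 to 0.39. Some grey intervals exclude 0, in either direction.

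Of 10 genes known to respond to prolactin in luteal cells, 5 passed, all lower in Bnc1tr/tr ovaries, where 4.19% of all genes tested passed as lower. The genotypes did not overlap for 6 of the 10, against 30.8% of all genes. These 6 were the 5 that passed as lower and Esr2, which was higher in every Bnc1tr/tr ovary. The median log2 fold change of the 10 was -0.98, against 0.02. The list was chosen with earlier results of these data known, so these counts are a description, and no difference from the other lists was tested. Hsd17b7, an enzyme gene of oestradiol and cholesterol synthesis whose protein was first described as a partner of the short prolactin receptor, was measured at 415.1, 775.6 and 998.9 CPM in WT and at 91.2, 28.4 and 34.8 CPM in Bnc1tr/tr ovaries. It showed the steepest fall of the list, with a log2 fold change of -3.82 (SE 0.52, 95% confidence interval -5.04 to -2.61, adjusted p = 0.00683). Lhcgr, the receptor for luteinizing hormone that prolactin helps to maintain in luteal cells, was measured at 544.5, 800.1 and 727.7 CPM in WT and at 92.8, 86.0 and 79.0 CPM in Bnc1tr/tr ovaries. The 3 Bnc1tr/tr ovaries were close together at 12.4% of the WT mean (log2 fold change -3.01, SE 0.16, adjusted p = 2.4e-04).

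Scarb1, the HDL receptor gene that brings cholesterol to luteal cells, fell from 2574.0 ± 215.6 to 709.1 ± 66.1 CPM (SD, n = 3 each; log2 fold change -1.86, SE 0.12, adjusted p = 4.1e-04). A2m, a protease inhibitor gene induced by prolactin through STAT5 in the rat corpus luteum, was low and fell further, from 18.1 ± 3.0 to 2.44 ± 0.553 CPM (log2 fold change -2.88, SE 0.21, adjusted p = 9.6e-04). Cdkn1b, the gene of the cell cycle inhibitor p27 that rises as granulosa cells luteinize, fell from 212.0 ± 9.46 to 109.1 ± 20.1 CPM (log2 fold change -0.96, SE 0.13, adjusted p = 0.00714). Lhcgr, Scarb1, Hsd17b7 and A2m passed under all 13 alternatives, and Cdkn1b under 12, with the exception of the fit without WT replicate 4.

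The gene that prolactin is known to repress gave no clear difference. Akr1c18, which encodes the enzyme that inactivates progesterone as the corpus luteum regresses, was measured at 12.2, 49.2 and 102.5 CPM in WT and at 6.72, 71.8 and 17.4 CPM in Bnc1tr/tr ovaries. Its spread within each genotype was wider than the difference between them (log2 fold change -0.78, 95% confidence interval -2.88 to 1.33, adjusted p = 0.647), and the sign turned without WT replicate 7 (0.05). Esr2, an oestrogen receptor gene that prolactin raises in luteal cells, was measured at 147.8, 114.7 and 175.7 CPM in WT and at 309.0, 182.6 and 216.8 CPM in Bnc1tr/tr ovaries. It was higher in every Bnc1tr/tr ovary than in any WT ovary but did not pass (log2 fold change 0.69, adjusted p = 0.102). Nr4a1, an orphan nuclear receptor gene, had a log2 fold change of -1.0 (adjusted p = 0.0846) and passed in 2 of the 13 alternatives. RefSeq promoter windows were found for 8 of the 10 genes, and of their 9 windows 1 held the STAT5 motif.

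**Figure D3:**
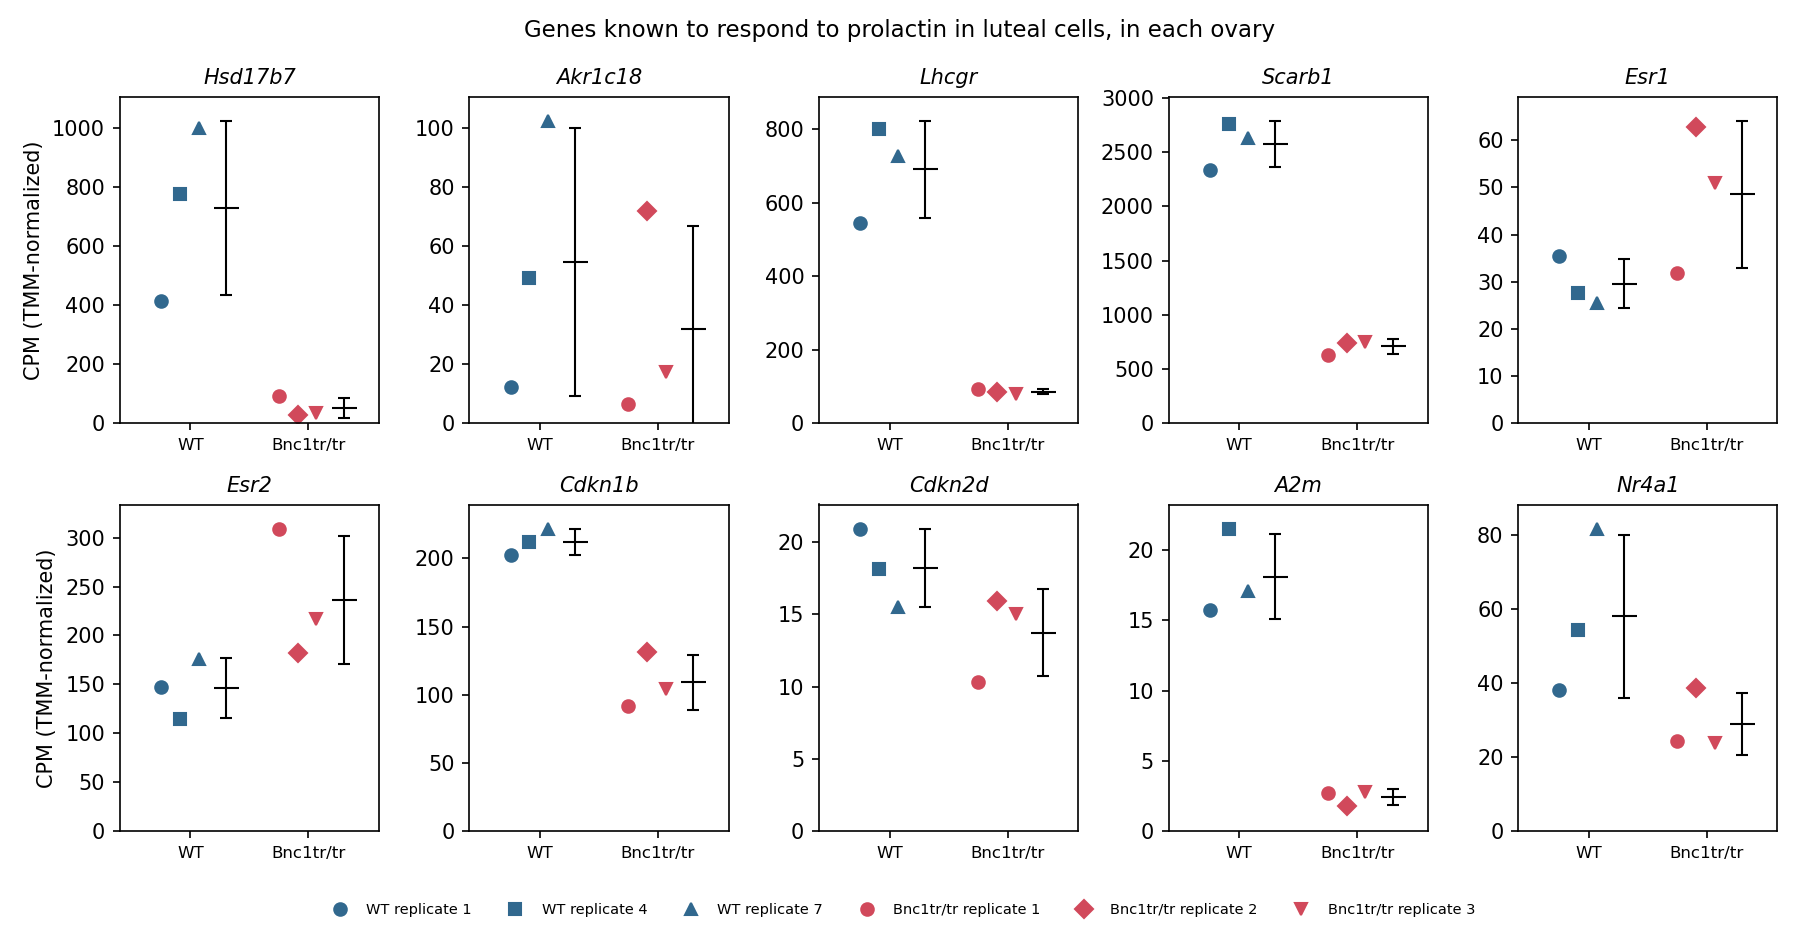
Level of the 10 luteal prolactin genes in each ovary, in CPM scaled with TMM factors, on axes that start at 0; symbols are ovaries, blue for WT and red for Bnc1tr/tr, and bars give the mean ± SD of 3 ovaries, with the lower end of the Akr1c18 bar cut at 0. Lhcgr, Scarb1, A2m and Hsd17b7 show a wide gap between the genotypes, and Akr1c18 spreads from 12.2 to 102.5 CPM within WT alone.

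Markers of the corpus luteum were lower in Bnc1tr/tr ovaries as well. In whole ovaries, fewer cells of a type and less RNA per cell cannot be told apart. Of 8 corpus luteum markers, from which Prlr and the luteal prolactin genes had been left out, 5 passed, all lower (Star, Cyp11a1, Hsd3b1, Ptgfr and Sfrp4, genes of steroid synthesis and of luteal function), against 4.19% of all genes tested, 7 did not overlap, against 30.8% of all genes, and the summed level ran from 21814.0 to 25757.3 CPM in WT and from 7040.8 to 12760.8 CPM in Bnc1tr/tr ovaries. Most of this sum came from Cyp11a1 (mean 10158.0 CPM in WT and 3546.9 CPM in Bnc1tr/tr) and Hsd3b1 (8430.2 and 5114.1 CPM). No marker of the list was at 0. Bnc1tr/tr replicate 1 had the lowest summed level, 7040.8 CPM, as well as the lowest Prlr. On the log2 scale, Prlr stood at -1.47, -1.66 and -1.54 relative to the mean of the 8 markers in WT replicates 1, 4 and 7, and at -1.76, -1.61 and -1.51 in Bnc1tr/tr replicates 1, 2 and 3. The genotypes overlapped, and the difference of -0.07 had p = 0.600 in a two-sided exact permutation test (n = 3 each). The smallest p of this test is 0.1, so it could not pass the threshold of 0.05 at any difference. With the median of the markers in place of the mean the difference was 0.11. These values are a description, and the part of the corpus luteum markers in the fall of Prlr, Stat5a, Stat5b, Cish and the luteal prolactin genes was not tested.

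**Figure D4:**
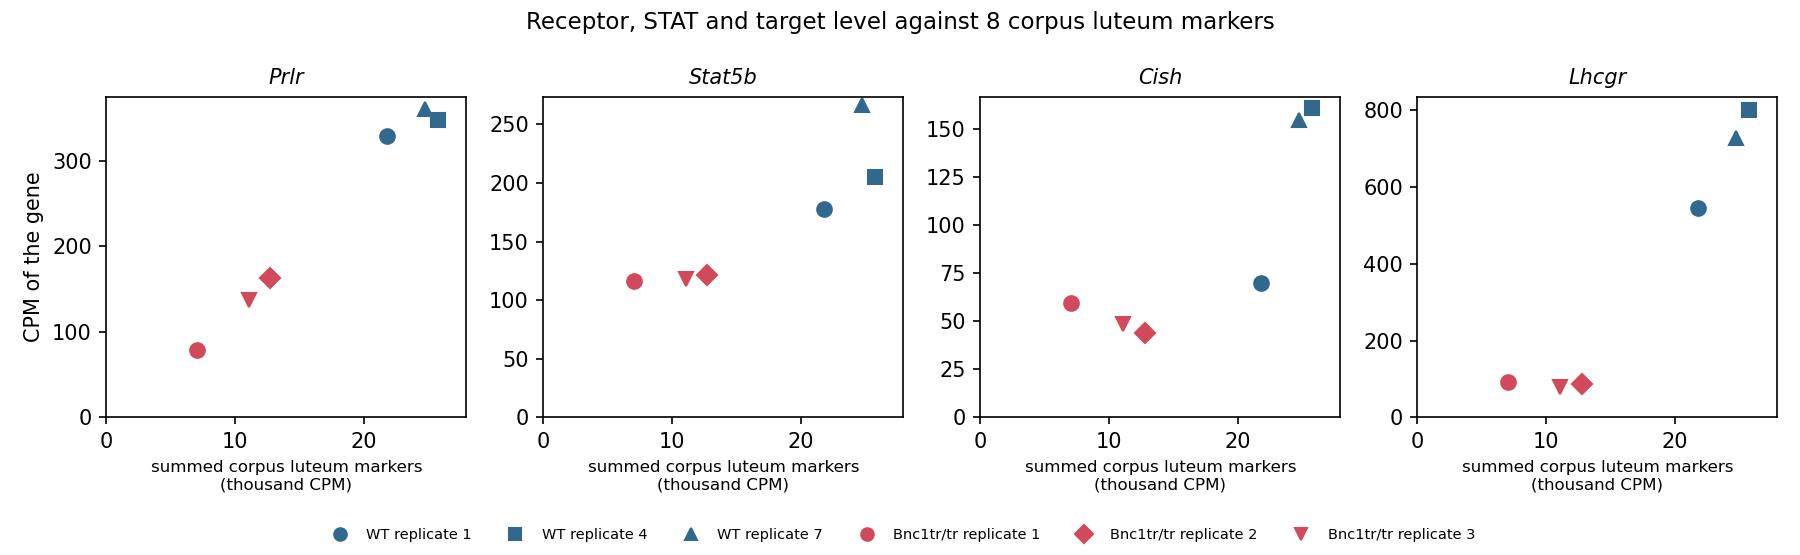
CPM of Prlr, Stat5b, Cish and Lhcgr (y axes, from 0) against the summed CPM of 8 corpus luteum markers divided by 1000 (x axes), with 1 symbol for each of 6 ovaries, blue for WT and red for Bnc1tr/tr. Most of the marker sum came from Cyp11a1 and Hsd3b1. Within Bnc1tr/tr, Prlr (79.0, 137.8 and 162.6 CPM) had the same order as the marker sum, whereas Stat5b (116.3 to 121.7 CPM) and Lhcgr (79.0 to 92.8 CPM) hardly varied and Cish was highest where the markers were lowest; within WT, Prlr was highest in replicate 7 (361.1 CPM) and the marker sum in replicate 4 (25757.3 CPM).

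The ovaries within a genotype did not order the members alike. Bnc1tr/tr replicate 1 had the lowest Prlr (79.0 CPM) and the highest Cish (59.3 CPM) of its genotype. WT replicate 1 had the lowest Prlr, Stat5a, Stat5b, Cish and Socs3 of the WT ovaries, and also the lowest Hsd17b7 (415.1 CPM) and Lhcgr (544.5 CPM). Of the 8 corpus luteum markers it was the lowest WT ovary for 4 (Cyp11a1, Hsd3b1, Ptgfr and Sfrp4) and not for the other 4 (Star, Parm1, Fdx1 and Fdxr), and for Parm1 and Fdxr it was the highest.

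Of the marker lists of other cell types, the summed level of endothelial markers did not overlap between the genotypes, and those of the lists that follow did. Of 5 endothelial markers 4 passed, all lower, against 4.19% of all genes tested that passed as lower. The list summed to 440.1 to 553.6 CPM in WT and 278.4 to 321.6 CPM in Bnc1tr/tr ovaries. Of 9 granulosa cell markers Amh and Amhr2 passed, both higher, against 2.88% of all genes tested that passed as higher. Over the granulosa list 5 log2 fold changes were positive and 4 negative (sums of 3021.9 to 3920.1 CPM in WT and 3456.3 to 5468.5 CPM in Bnc1tr/tr). Of 9 oocyte markers Gdf9, Bmp15 and Oosp1 passed, all higher, against the same 2.88%. Over the oocyte list 8 log2 fold changes were positive (sums of 524.2 to 687.8 CPM in WT and 654.8 to 997.2 CPM in Bnc1tr/tr). Of 5 adipocyte markers 1 passed, higher, against the same 2.88%. The sum of the 5 was 238.6, 192.3 and 28.4 CPM in Bnc1tr/tr replicates 1, 2 and 3 against 41.8, 13.2 and 72.8 CPM in WT. Oviduct markers reached 492.9 CPM in Bnc1tr/tr replicate 3 and 136.5 CPM in WT replicate 1 against 20.1 to 37.0 CPM in the other ovaries. For each of the theca (5 markers), stroma (6), macrophage (6), lymphocyte (5 tested of 6), oviduct (5 tested of 6) and pituitary (2 tested of 6) lists, 0 markers passed in edgeR, with 2, 2, 1, 0, 1 and 0 at an unadjusted p under 0.05 and 2, 2, 0, 0, 1 and 0 called by DESeq2. Over all genes tested 7.06% passed in edgeR. The part of all these marker lists in the values of the members was not tested.

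The genes whose profile was most like that of Prlr were Acsl4, Plxnd1, Slc37a4, Cyp11a1 and Ripk1, by Pearson's correlation of log2 CPM over the 6 ovaries among 11408 genes with a mean of at least 10 CPM. The correlations, 0.9996, 0.9986, 0.9979, 0.9973 and 0.9970, are a description, since the points are 2 genotypes sharing libraries and 977 genes exceeded 0.9. Acsl4, a fatty acid CoA ligase gene active in steroid-making cells, was measured at 172.6, 188.2 and 188.4 CPM in WT and at 39.1, 86.1 and 70.2 CPM in Bnc1tr/tr ovaries. These values followed the order of Prlr in every ovary, and the log2 fold change of Acsl4 was -1.49 (SE 0.25, adjusted p = 0.0153), a call lost without WT replicate 4 (0.0844) and WT replicate 7 (0.0635). Cyp11a1, the first enzyme of steroid synthesis, fell from 10158.0 ± 959.3 to 3546.9 ± 1446.9 CPM (SD, n = 3 each; log2 fold change -1.52, adjusted p = 0.0261), and its call was lost without any 1 of the WT ovaries (0.0524 to 0.114) and without Bnc1tr/tr replicate 3 (0.0729). Plxnd1 and Slc37a4 passed with log2 fold changes of -0.62 and -0.76, and Ripk1 did not (-0.24, adjusted p = 0.111). Without any 1 of the WT ovaries the calls of Plxnd1 (0.0579 to 0.0959) and Slc37a4 (0.0533 to 0.0994) were lost, and that of Plxnd1 also without Bnc1tr/tr replicate 3 (0.0539).

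Bnc1, the mutated gene, was measured at 13.9, 13.4 and 13.1 CPM in WT and at 18.7, 13.7 and 11.5 CPM in Bnc1tr/tr ovaries (log2 fold change 0.12, adjusted p = 0.733). Counts per gene do not show the deletion, so this level does not check the labels. The libraries held between 25247770 and 34406296 counted reads, and the 3 WT totals lay above the 3 Bnc1tr/tr totals.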

How the data were processed

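Total RNA of 6 whole ovaries (3 WT, 3 Bnc1tr/tr) was extracted with TRIzol, and single-end libraries were run on an Ion Proton sequencer. What the authors deposited are raw counts, whole reads per gene and ovary with no normalization, for 44788 gene symbols. The submitters' processing notes list the builds mm10 and Sscrofa10.2, a pig build, without saying which was used, and mm10 was taken for these mouse samples; the aligner, the counting tool, the annotation and the use of strand are not given in the sources used here. The libraries held 25247770 to 34406296 counts.

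From the counts, genes were filtered with filterByExpr (minimum count 10), scaled with TMM and compared with the quasi-likelihood test of edgeR 4.0.16 (R 4.3.3); p values were two-sided and adjusted by Benjamini-Hochberg over the 19423 genes tested and a threshold of 0.05. The SE of a log2 fold change was its size divided by the square root of F. Log2 CPM used a prior count of 2. Gene positions and lengths came from GENCODE M21, which is on GRCm38, the same assembly as mm10, and promoter windows came from RefSeq (GRCm38.p6), with those of chromosome 18 left out of the motif search. Of the 7 members, 6 matched a promoter window by symbol. Adgre1 was matched by an older symbol. Scripts were tested on simulated data.

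The members, pathway lists and cell type markers were written by hand and chosen with earlier results of these data known. Named were the 7 members, every passing gene of a pathway list and at most 3 others of a list by mean CPM, the 5 genes most like Prlr, and Bnc1. Some genes of the pathway lists are not reported here and were left out of the counts of their lists. The alternatives tried were scaling by library size or by DESeq2's size factors, testing with no filter, at least 10 counts in every ovary, DESeq2 1.42.0, limma-voom (limma 3.58.1), a robust edgeR fit, leaving out each ovary, unadjusted p values, a prior count of 0.5, and the median of the markers. The longest coding transcript as gene length was added after seeing the data.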

Additional observations from a re-analysis of the deposited data

How the results depend on the processing

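The paper states that littermates were compared, but the labels do not say which samples were littermates. The genotypes share only 1 replicate number, so no paired analysis was possible. The count of all genes that passed was 1372; it was 2420 with DESeq2, 4698 at an unadjusted p under 0.05, and from 320 to 1282 with 1 ovary left out. The count of members was 4, and from 0 to 4 with 1 ovary left out; the other settings gave 3 or 4. Prlr kept its direction under all 13 alternatives, with log2 fold changes of -1.68 to -1.20 when 1 ovary was left out, and lost its call without WT replicate 4 (adjusted p = 0.0757) and WT replicate 7 (0.0566). Cish lost its call with limma-voom (adjusted p = 0.0542), the robust fit (0.0683) and without any 1 ovary other than WT replicate 1 (0.0601 to 0.151). Stat5a lost it with library size (0.0553) and without any 1 ovary other than WT replicate 1 (0.0654 to 0.120). Stat5b lost it without WT replicate 4 (0.0684) and Bnc1tr/tr replicate 3 (0.0526). Calls were gained by Lepr with library size (0.0330), no filter (0.0309), DESeq2 (0.00390), the robust fit (0.0496) and without Bnc1tr/tr replicate 1 (0.00690), by Igf1 with library size (0.0350), DESeq2 (0.0209) and without Bnc1tr/tr replicate 2 (0.0421), by Nr4a1 with no filter (0.0455) and DESeq2 (0.00476), and by Esr2 with DESeq2 (0.0150). The cause of these changes was not tested. The luteal prolactin genes that passed numbered 5, from 4 to 6 with 1 ovary left out, and 8 with DESeq2 or at an unadjusted p under 0.05. These 8 were not all lower. At an unadjusted p under 0.05 they included the 2 genes of the list with positive log2 fold changes, 1 of them Esr2 (0.69). The level of Prlr relative to the corpus luteum markers differed by -0.07, by 0.11 with their median and by 0.00 without Bnc1tr/tr replicate 1, and by -0.12 to 0.00 over the ovaries left out. Signs that turned were of genes that did not pass. Ghr was at -0.00 with DESeq2's size factors, no filter and DESeq2 and at -0.01 with limma-voom. With library size Socs5 was at 0.02, Ptpn11 at 0.01, Myc at 0.05 and Bcl2l1 at 0.02. With 1 ovary left out, the ranges were -0.23 to 0.18 for Ghr, -0.38 to 0.14 for Myc, -0.19 to 0.01 for Csf2ra, -2.18 to 0.05 for Akr1c18, -0.20 to 0.01 for Bcl2l1, -0.01 to 0.21 for Jak1 and -0.10 to 0.26 for Bnc1. With the longest coding transcript as length, the WT level was 34.9 RPKM for Prlr, 23.9 for Stat5a, 45.1 for Cish and 74.6 for Socs2. With 3 ovaries a genotype, a difference such as that of Socs3 is known only to within its interval.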
